A study of Mus musculus with 2 samples.

Results

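Translation factors are the proteins that bring ribosome, messenger RNA and transfer RNA together and then drive the ribosome along the message. Their transcripts were compared between 2 samples of epididymal white adipose tissue, the fat pad beside the epididymis. One male C57BL/6 mouse had received a high-fat diet (HFD) over 7 weeks, and the other had stayed on normal chow. The dietary challenge began at 9 weeks of age, per the labels, and no other treatment or allele is named. Each diet had 1 Affymetrix array, so the spread between animals is unknown and no test of the diet was made. "Higher" and "lower" describe these 2 samples only.

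The members were all probe sets, the groups of short probes read as a single value, whose only annotated gene symbol begins with Eif1 to Eif6, Eef1 or Eef2. One further gene of this name pattern is not analysed here. The rule took 152 of 45037 probe sets, which stand for 57 of 18193 genes, and it used no measured value. Another 8 probe sets carry a family symbol together with that of another gene and were not used. A floor for weak signal was set at the 40th percentile of each array, an intensity of 27.9 on the high-fat diet array and 28.6 on the chow array, and probe sets that reached it on either array are called measured. Measured members numbered 55, of which 54 were above this floor on both arrays. Eef2kmt, a methyltransferase of elongation factor eEF2, and Eif4a3, a helicase of the exon junction complex, stayed under it on both. Genes with more than 1 measured probe set are represented by that of highest mean log2 intensity. Differences are given in log2 units of intensity as high-fat diet minus chow, and values under the floor were raised to it first.

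Initiation begins when eIF2 carries the initiator transfer RNA to the small ribosomal subunit, with eIF1, eIF1A, eIF3 and eIF5 holding the complex together while it scans for the start codon. The eIF4 group recruits the message by its cap, and small inhibitors, the eIF4E-binding proteins, block that step when the kinase complex mTORC1 is inactive. Stress kinases phosphorylate eIF2 and so hold back eIF2B, which recharges it. In elongation eEF1A delivers each aminoacyl transfer RNA and eEF2 moves the ribosome on by a codon. In fat these routes link insulin and nutrients to protein synthesis.

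The sequences around the annotated starts of the 4 members that differed most between the diets are shown first, so that the genes behind the largest values can be identified. They come from RefSeq on GRCm38.p6, run 5′ to 3′ on the gene's strand, and give 40 bases before the annotated start in lower case and 20 bases after it in capitals. For Eef2k the table lists 3 starts. Which start was used in these samples was not tested.
Eef2k, upstream start, chr7:120842791-120842850, plus strand: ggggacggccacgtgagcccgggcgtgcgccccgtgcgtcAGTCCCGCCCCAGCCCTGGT
Eef2k, middle start, chr7:120843560-120843619, plus strand: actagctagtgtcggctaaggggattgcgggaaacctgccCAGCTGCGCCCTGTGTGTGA
Eef2k, downstream start, chr7:120851149-120851208, plus strand: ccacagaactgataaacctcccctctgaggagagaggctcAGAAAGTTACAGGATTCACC
Eef1a2, chr2:181156996-181157055, minus strand: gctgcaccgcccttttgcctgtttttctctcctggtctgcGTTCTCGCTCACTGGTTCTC
Eef1akmt2, chr7:132852628-132852687, minus strand: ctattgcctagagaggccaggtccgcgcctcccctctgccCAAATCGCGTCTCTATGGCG
Eif2a, chr3:58525781-58525840, plus strand: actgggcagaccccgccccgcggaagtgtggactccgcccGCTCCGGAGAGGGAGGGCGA

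As a family the translation factors had nearly the same intensities on both arrays. The median difference of the 55 measured members was -0.05 log2 units, beside -0.02 over all 14066 measured genes. Of the members, 24 were higher on the high-fat diet and 31 were lower. The split depends on small differences, with 17 higher and 38 lower after quantile normalization, 11 higher and 44 lower with centring on reference genes, and 29 higher and 26 lower with the mean of all probe sets. Within 0.25 log2 units of 0 lay 48 members, or 87.3%, against 54.8% of all measured genes. At 1.5-fold or more, 1 member was higher, where 5.82% of all measured genes passed, and 3 members were lower, where 6.4% passed. Together these 4 members make 7.27%, beside 12.2% of all measured genes in either direction. The members are also bright probe sets, with a median intensity of 388.7 on the high-fat diet array and 415.8 on the chow array, against medians of 108.0 (HFD) and 111.2 (chow) over all measured genes. Among genes with a mean intensity of 100 or more, 7.36% passed 1.5-fold and 62.9% lay within 0.25. Of the 49 members as bright as this, 3 passed 1.5-fold, or 6.12%, which is near that share, and 89.8% lay within 0.25. At a mean intensity of 400 or more none of 28 members passed 1.5-fold, where 7.62% of 2007 genes did, and all 28 lay within 0.25, where 67.1% of those genes did. The SD of the differences was 0.12 over these 28 members and 0.33 over the 2007 genes.

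**Figure D1:**
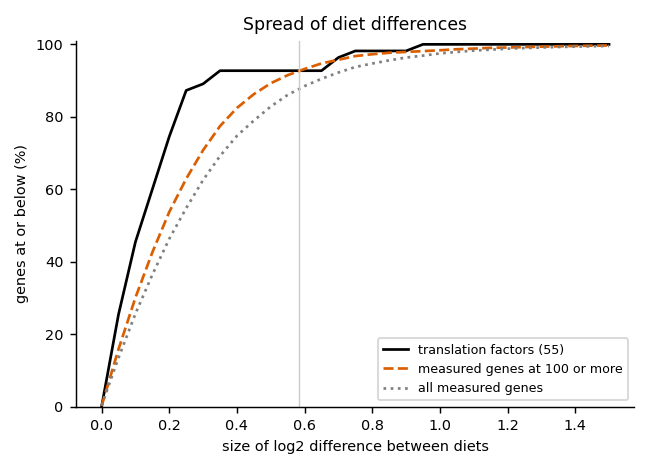
Share of genes (y axis, percent) whose diet difference is at or below a given size (x axis, log2 units), for the 55 translation factors, for measured genes with a mean intensity of 100 or more and for all measured genes. The translation factor line is above both others up to about 0.5, with 87.3% at or below 0.25, and meets the line of the bright genes near 1.5-fold, marked by the vertical line.

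Probe error gives a yardstick for such small values. In 5196 genes at least 2 probe sets reached the floor on both arrays, and their diet differences scattered around the gene's mean with a pooled SD of 0.37 log2 units for genes below an intensity of 100, of 0.29 for those up to 400 and of 0.20 for brighter ones. It contains no difference between animals. The difference of 44 of the 55 members was smaller than the SD of their intensity class. Only Eef2k, Eef1a2 and Eif2a exceeded it more than 2 times. Of the 34 members with 2 or more measured probe sets, 9 had all of them on the same side of 0.

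**Figure D2:**
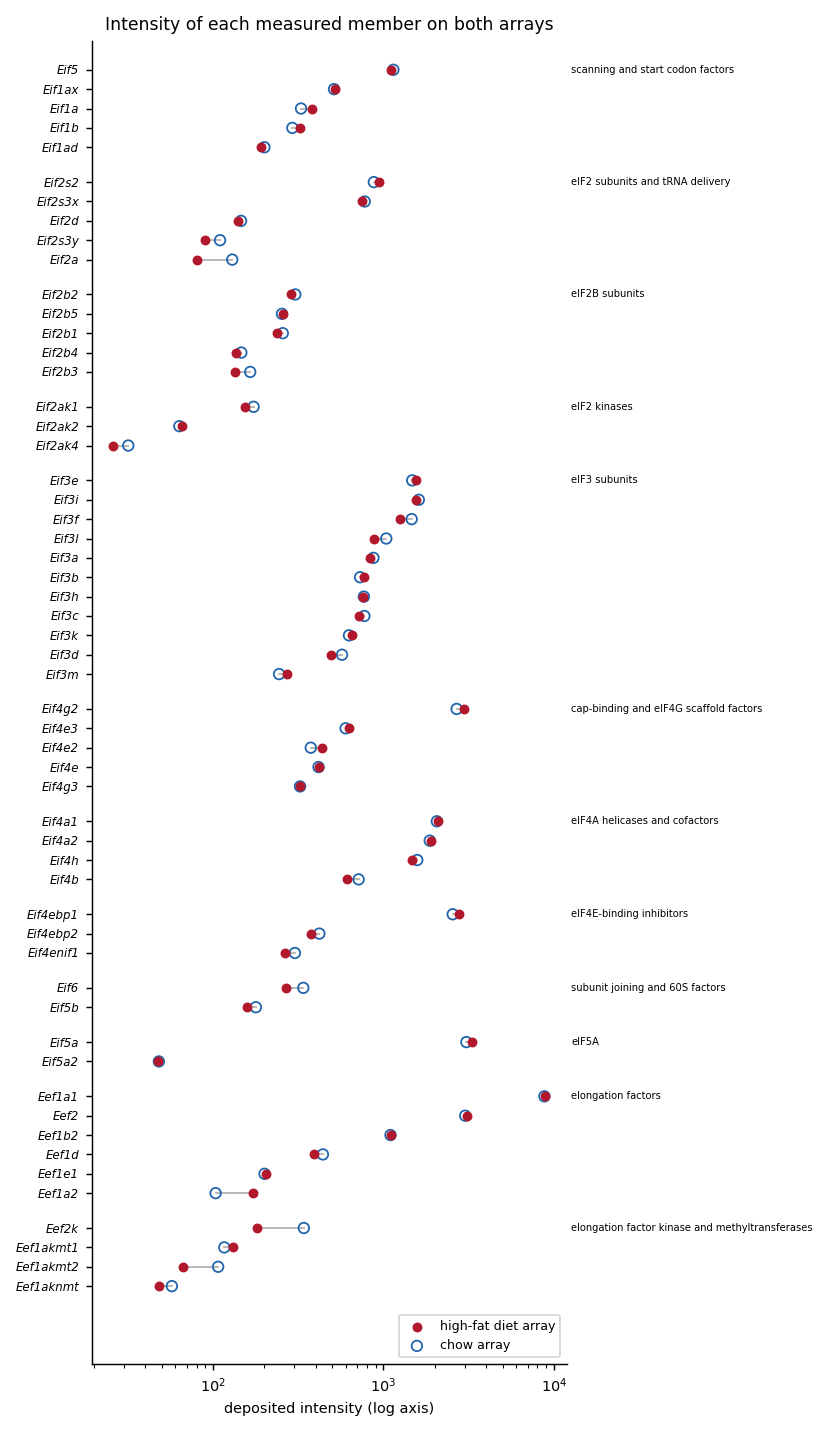
Deposited intensity (x axis, log scale) of the representing probe set of each of the 55 measured members, on the high-fat diet array (filled) and the chow array (open), grouped by role. Nearly all pairs overlap or touch, and the visible gaps belong to Eef2k, Eef1a2, Eef1akmt2 and Eif2a. Levels of different genes cannot be compared, since each probe set has its own response.

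Factors of scanning and start codon choice differed by -0.07 to 0.21 over 5 members. Eif5, which stimulates GTP hydrolysis by eIF2 at the start codon, had an intensity of 1106.6 (HFD) and 1142.6 (chow). All 5 of its measured probe sets were slightly lower, with -0.05 in the representing one. Eif1a, which encodes the scanning factor eIF1A, was at 378.5 (HFD) and 328.2 (chow), the highest difference of the group, but its other probe set differed by -0.08. Its X-linked relative Eif1ax had 516.7 (HFD) and 512.6 (chow). Eif1b, a close relative of the start codon guardian eIF1, stood at 323.2 (HFD) and 291.9 (chow), a difference of 0.15 in its only probe set. Eif1ad, which shares a domain with eIF1A, was lowest at -0.07, with its other probe set at 0.16.

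The eIF2 group held 1 of the 4 members past 1.5-fold. Eif2a, which encodes an alternative carrier of initiator transfer RNA and not the alpha subunit of eIF2, had 80.7 (HFD) and 129.6 (chow), 1.61-fold lower. Its other measured probe set went the opposite way, with 67.4 (HFD) and 53.8 (chow), so the direction for this gene depends on the probe set. Eif2s2, the beta subunit, was at 943.2 (HFD) and 877.5 (chow), and its 6 measured probe sets were all higher, by 0.02 to 0.51. The gamma subunit has an X-linked and a Y-linked gene. Eif2s3x read 745.0 (HFD) and 775.9 (chow), and Eif2s3y 89.2 (HFD) and 109.9 (chow), differences of -0.06 and -0.30. Eif2d, another factor of non-canonical transfer RNA delivery, differed by -0.06.

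All 5 subunit genes of eIF2B, the exchange factor that reloads eIF2 with GTP, were measured, and 4 were lower by small amounts. Eif2b3 had 135.2 (HFD) and 165.2 (chow), a difference of -0.29, while Eif2b1, Eif2b4 and Eif2b2 differed by -0.12, -0.09 and -0.09. Only the difference of Eif2b3 reached the probe error of its intensity class. Eif2b5, the catalytic subunit, was at 258.2 (HFD) and 253.7 (chow) and differed by 0.03, and its dimmer second probe set differed by 0.69.

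None of the 3 eIF2 kinases measured here passed 1.5-fold. Eif2ak1, the haem-regulated kinase, had 154.5 (HFD) and 172.9 (chow), with 2 of its 4 measured probe sets on each side of 0. Eif2ak2, the kinase PKR that responds to double-stranded RNA, was at 65.4 (HFD) and 63.4 (chow), a difference of 0.04 that became 0.34 with a floor at the 60th percentile. Eif2ak4, the amino acid sensor GCN2, had 26.0 (HFD), under the floor, and 31.8 (chow), above it, which makes it at least 1.14-fold lower and leaves the size of its difference unknown.

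The eIF3 complex is the scaffold of the initiation complex, and its 11 measured subunit genes all lay between -0.23 and 0.15, with a median of -0.06. Eif3l read 882.1 (HFD) and 1038.0 (chow), and Eif3f 1246.1 (HFD) and 1463.0 (chow). Eif3d, a subunit that can itself bind a cap, was at 490.9 (HFD) and 571.1 (chow). These 3 differed by -0.23, -0.23 and -0.22, just past the probe error of bright genes, and the other 8 subunits were within it. At the upper end Eif3m was at 271.4 (HFD) and 244.0 (chow). Second probe sets scattered more widely than the subunits did. Eif3c, for example, differed by -0.10 in its representing probe set and by -0.01, -0.41 and 0.63 in the others. In Eif3l 2 dim probe sets differed by 0.89 and by at least 0.65, against the direction of the bright one.

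Genes that bind the cap or bridge it to the ribosome differed by -0.0045 to 0.22. Eif4e, the cap-binding protein, had 420.2 (HFD) and 415.8 (chow). Its relatives Eif4e2, which can repress translation from the cap, and Eif4e3 stood at 437.0 (HFD) and 374.4 (chow) and at 626.6 (HFD) and 599.5 (chow). Of the 5 probe sets of Eif4e2, 4 were higher, with 0.22 in the representing one. Eif4g2, a scaffold protein without a site for eIF4E, was at 2962.9 (HFD) and 2686.0 (chow), and all 5 of its probe sets were higher, by 0.0047 to 0.69. Eif4g3 differed by -0.0045.

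The paralogous helicases that unwind the leader of the message were nearly level between the arrays in their representing probe sets. Eif4a1 had 2075.3 (HFD) and 2055.9 (chow), and Eif4a2 had 1900.8 (HFD) and 1868.3 (chow). Of the other probe sets of Eif4a1, 1 read 1677.0 (HFD) and 1378.6 (chow), a difference of 0.28 that exceeds the probe error of bright genes, and the other differed by -0.0027. Their cofactors Eif4b and Eif4h differed by -0.22 and -0.10, and all 3 probe sets of Eif4b were lower. Among the inhibitors that hold eIF4E away from its scaffold, Eif4ebp1, the form prominent in fat, was at 2759.8 (HFD) and 2547.8 (chow) and higher in all 3 probe sets, by 0.09 to 0.13. Eif4ebp2 was at 378.0 (HFD) and 420.3 (chow), with 2 of 4 probe sets on each side of 0. Eif4enif1, which carries eIF4E into the nucleus, differed by -0.19.

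The 2 factors of subunit joining were both lower, and the 2 eIF5A genes differed little. Eif6, which keeps the large ribosomal subunit from joining too early, had 268.6 (HFD) and 338.5 (chow), a difference of -0.33 that exceeds the probe error of its class, and its second probe set differed by -0.16. Eif5b, the GTPase that joins the subunits, differed by -0.18 but by 0.32 in its second probe set. Eif5a, the hypusine-carrying factor that helps stalled ribosomes forward, was at 3324.2 (HFD) and 3065.6 (chow), a difference of 0.12. Its paralogue Eif5a2 was dim, at 47.4 (HFD) and 48.1 (chow).

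**Figure D3:**
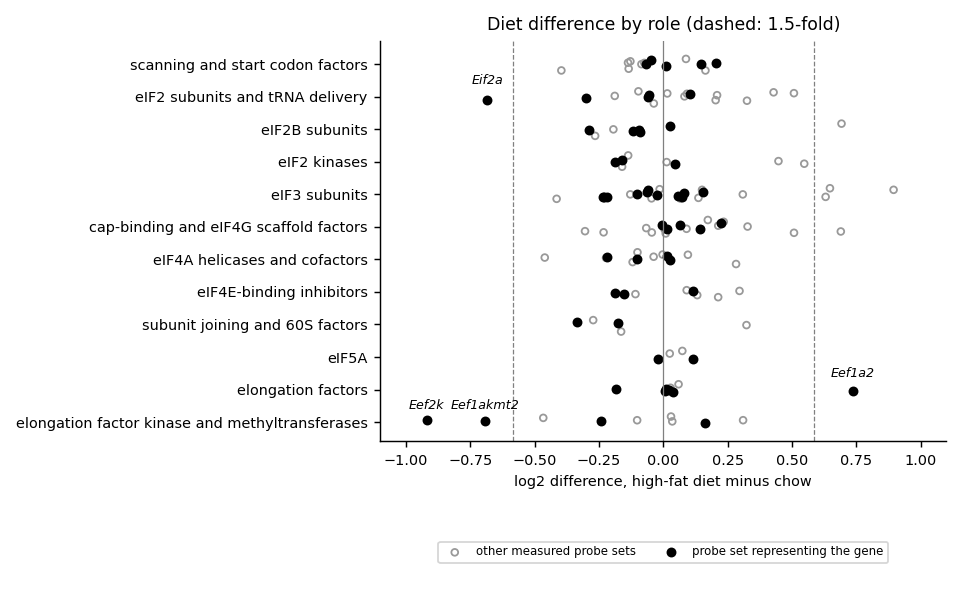
Log2 difference, high-fat diet minus chow (x axis), of the representing probe set of each member (filled) and of its other measured probe sets (open), by role (rows). Dashed lines mark 1.5-fold. Eef2k, Eef1akmt2 and Eif2a are left of the lower line and Eef1a2 right of the upper one, and 5 other probe sets lie right of the upper line.

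Elongation factors differed in a single gene. Eef1a1, the general form of eEF1A, had 8856.9 (HFD) and 8788.0 (chow), the highest intensity of any member on both arrays. Whether a signal this bright was compressed was not tested. Eef2 was at 3092.9 (HFD) and 3015.7 (chow), a difference of 0.04. Eef1b2 and Eef1d, parts of the exchange factor that reloads eEF1A, differed by 0.0047 and -0.18. For Eef1d, 2 of the 3 measured probe sets were slightly higher. Eef1e1, a subunit of the aminoacyl transfer RNA synthetase complex, differed by 0.02.

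Eef1a2, the form of eEF1A that replaces Eef1a1 in adult skeletal muscle, heart and neurons, had 172.4 (HFD) and 103.5 (chow), 1.67-fold higher in its only probe set. It was the 1 member past 1.5-fold upward. Quantile normalization, centring on reference genes and adding 16 to all intensities gave 0.66 to 0.77, and the other 5 alternatives could not change the value of a single probe set above the floor. In bulk tissue, a different number of cells and a different amount of RNA per cell cannot be told apart. Markers of skeletal muscle were read beside it. Of 6 such markers Acta1, Ckm and Myl1 were measured, and Myh4, Mylpf and Tnnt3 were below the floor on both arrays. The summed intensity of the measured 3 was 854.3 (HFD) and 1074.6 (chow), but they did not go 1 way. Acta1 was lower, at 521.0 (HFD) and 608.2 (chow), as was Myl1, at 269.2 (HFD) and 411.3 (chow). Ckm was higher, at 64.1 (HFD) and 55.1 (chow).

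The other 2 members past 1.5-fold act on the elongation factors. Eef2k, the calcium-dependent kinase that phosphorylates eEF2 and slows elongation, had 180.3 (HFD) and 340.8 (chow), 1.89-fold lower in probe set 1437829_s_at. Probe set 1449013_at read 121.3 (HFD) and 167.6 (chow), a difference of -0.47, and probe set 1439860_at read 121.5 (HFD) and 119.0 (chow), a difference of 0.03. The gene was thus lower in 2 of 3 probe sets and past 1.5-fold in 1, whose suffix marks probes that may match more than 1 transcript. Averaged over the 3 the difference was -0.45. Eef1akmt2, which methylates a lysine of eEF1A, was at 66.2 (HFD) and 107.1 (chow), 1.62-fold lower in its only probe set. It came just under the limit of 1.5-fold when 16 was added to all intensities in place of the floor. Of the other eEF1A methyltransferases, Eef1aknmt and Eef1akmt1 differed by -0.24 and 0.16.

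**Figure D4:**
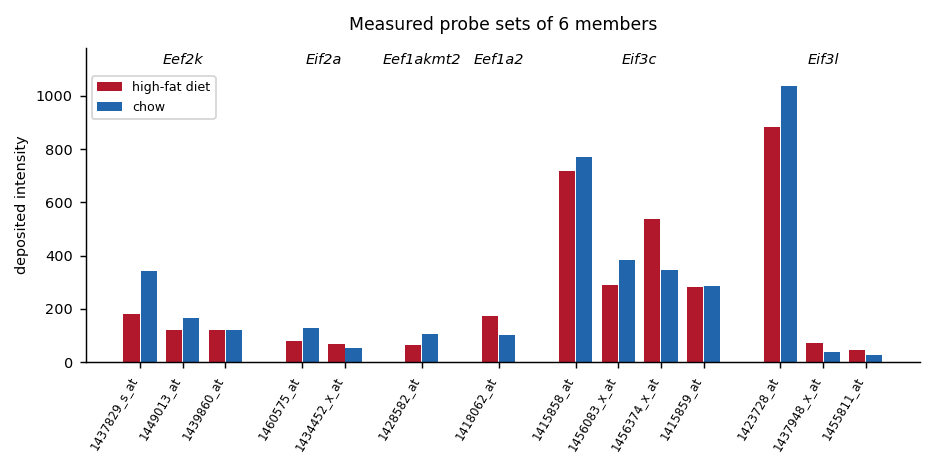
Deposited intensity (y axis, from 0) of every measured probe set (x axis) of the 4 members past 1.5-fold and of 2 eIF3 subunits, on the high-fat diet array (left bar) and the chow array (right bar). Eef2k is lower in 2 of 3 probe sets, and Eif2a, Eif3c and Eif3l have probe sets of both directions.

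Over all 132 measured probe sets of the family, 9 passed 1.5-fold in either direction, or 6.82%, against 13% of all measured probe sets with 1 gene. Among the 9 were 5 that did not represent their gene, and 4 of these 5 had a mean intensity under 100. These 5 were all higher on the high-fat diet. They belong to Eif2b5, Eif3c, Eif3l and Eif4g2.

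Start regions from the same RefSeq table were matched to 44 of the 55 members through their gene ID. The pattern CCGGAAGT, the core bound by factors of the ETS family, was chosen after the sequences had been read. On either strand of the 300 bases around any annotated start of a gene it occurred in 9 members, or 20.5%, against 7.66% of 11221 measured genes and 4.31% of all 27025 genes in the table. It is shown in capitals, or as its reverse complement ACTTCCGG, in windows of 75 bases before and 25 after the annotated start, so that its place beside the start can be seen.
Eef1b2, chr1:63176756-63176855, plus strand: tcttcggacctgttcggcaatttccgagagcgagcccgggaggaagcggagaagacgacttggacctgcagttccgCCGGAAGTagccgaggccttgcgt
Eif2b4, chr5:31193115-31193214, minus strand: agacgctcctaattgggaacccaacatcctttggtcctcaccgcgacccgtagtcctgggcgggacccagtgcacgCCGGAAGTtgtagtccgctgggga
Eif2b2, chr12:85219406-85219505, plus strand: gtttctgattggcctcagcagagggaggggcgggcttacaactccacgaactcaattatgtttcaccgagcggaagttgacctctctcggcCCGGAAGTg
Eif2ak1, chr5:143817717-143817816, plus strand: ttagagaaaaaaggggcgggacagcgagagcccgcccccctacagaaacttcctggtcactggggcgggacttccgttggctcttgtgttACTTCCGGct
Eif3d, chr15:77970800-77970899, minus strand: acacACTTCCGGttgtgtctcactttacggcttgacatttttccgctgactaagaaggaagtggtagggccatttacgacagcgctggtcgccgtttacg
The 9 members with the pattern differed between the diets by -0.23 to 0.22, with a median of -0.09. The median of the 35 members without it was -0.06, and all 4 members past 1.5-fold were among them.

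Many transcripts of the translation machinery begin with an unbroken run of pyrimidines through which mTORC1 controls their translation. Runs were sought on the gene's strand, with at least 10 pyrimidines in a row between 10 bases before and 25 after an annotated start. Such a run occurred in 9 of the 44 members, or 20.5%, against 7.15% of measured genes. The count includes runs that lie wholly after the annotated start, as in Eef1a2 and Eif2s3y, and so do not begin at it. The run is shown in capitals for 5 of the 9, among them both forms of eEF1A and both gamma subunit genes.
Eef1a1, chr9:78481708-78481737, minus strand: tggctccgCCCTCTTCCCgagggtggggga
Eef1a2, chr2:181156979-181157008, minus strand: ctcactggTTCTCTCCCTCgctccggtgca
Eif2s3x, chrX:94212635-94212664, minus strand: gccgagcaTTTTCCTTTTCTCTCCgagcaa
Eif2s3y, chrY:1010588-1010617, plus strand: cacagccaCTTCCTTCTTTCgtgagcaaga
Eif3f, chr7:108934403-108934432, plus strand: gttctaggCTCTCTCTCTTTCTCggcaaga
The diet difference of the 9 members with such a run had a median of -0.06, as did that of the 35 without. The ranges were -0.30 to 0.74 with a run and -0.92 to 0.22 without. The split follows this pattern only, and control of these members by mTORC1 was not tested. The array reads the amount of a transcript and not its translation.

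Genes that act around the translation factors were read in 8 lists with 62 genes, of which 60 were measured. They had a median difference of 0.02, and 54 of the 60, or 90%, lay within 0.5 log2 units, beside 82.8% of all measured genes. Of these, 3 were 1.5-fold or more higher and 3 lower, where 5.82% and 6.4% of all measured genes passed.

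In the mTORC1 list 10 of 15 measured genes were higher, where 46.8% of all measured genes were higher, and the list median was 0.26. The measured probe sets of Rptor, Akt1s1, Mknk2, Mlst8 and Tsc1 lay on both sides of 0. Deptor, which encodes an inhibitor bound to mTOR, was at 701.9 (HFD) and 391.1 (chow), 1.79-fold higher, and all 5 of its measured probe sets were higher, by 0.42 to 0.84. Tsc2 and Sesn2 differed by 0.45 and 0.49, and Mtor itself by 0.07 in its representing probe set. The dimmer second probe set of Mtor read 78.6 (HFD) and 26.3 (chow), the latter under the floor, a difference of at least 1.46. Mlst8, a subunit of mTORC1, differed by 0.44 in 1 probe set and by -0.49 in the other. Tsc1, a partner of Tsc2 in restraining mTORC1, was 1.67-fold lower at 55.1 (HFD) and 91.9 (chow), but its other measured probe set was higher, at 63.5 (HFD) and 36.7 (chow).

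Genes of the response to eIF2 phosphorylation lay between -0.44 and 0.41 with a median of -0.10, and none of the 11 passed 1.5-fold. Atf4, the transcription factor of this response, had 449.8 (HFD) and 555.8 (chow), and its target Asns, the asparagine synthetase, had 446.1 (HFD) and 605.4 (chow). Atf4 and Asns were each lower in both of their measured probe sets. Trib3, another target, went the other way at 99.3 (HFD) and 74.9 (chow), but its second probe set differed by only 0.04. Ddit3, which encodes CHOP, differed by 0.04.

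All 6 genes in the list of mitochondrial translation factors were lower on the high-fat diet, with a median of -0.19. Of all measured genes 52.9% were lower. The list was chosen by hand with earlier results of these data known, and mitochondrial factors outside it were not read. In 4 of the 6 the difference was smaller than the probe error of their intensity class. Gfm2, a recycling factor of the mitochondrial ribosome, was at 100.4 (HFD) and 132.8 (chow), a difference of -0.40. Gfm1, Tsfm and Tufm, which serve mitochondrial elongation, differed by -0.30, -0.23 and -0.16, and the initiation factors Mtif2 and Mtif3 by -0.09 and -0.05. None passed 1.5-fold. Among the cytosolic factors, Eef1a1 and Eef2 differed by 0.01 and 0.04, and Eef1d and Eif5b by -0.18 each in their representing probe sets. However, 2 of the 3 measured probe sets of Eef1d were higher, by 0.06 and 0.03, and 1 of the 3 of Eif5b, by 0.32. Eif4b and Eif6 were lower in all their measured probe sets, by -0.22 and -0.33 in the representing ones. Of the 55 members, 31 were lower.

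In the remaining lists 4 genes passed 1.5-fold, each in its only measured probe set, and 2 of them only narrowly. Pelo, a ribosome rescue factor, was 1.60-fold higher at 124.2 (HFD) and 77.6 (chow), and Eefsec, the elongation factor for selenocysteine, 1.51-fold higher at 65.2 (HFD) and 43.3 (chow). Paip1, a partner of poly(A)-binding protein, was 1.53-fold lower at 48.3 (HFD) and 73.9 (chow). Eefsec was under 1.5-fold with a floor at the 60th percentile, with 16 added and with reference centring, at 0.12 to 0.51. Paip1 was under it with that floor, with 16 added and with quantile normalization, at -0.58 to -0.33. Pelo came just under 1.5-fold with 16 added, at 0.58. Dph2, an enzyme of the diphthamide residue of eEF2, had 9.1 (HFD), under the floor, and 47.1 (chow), at least 1.69-fold lower. Pabpc1, the main cytosolic poly(A)-binding protein, was at 3238.9 (HFD) and 2900.3 (chow).

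**Figure D5:**
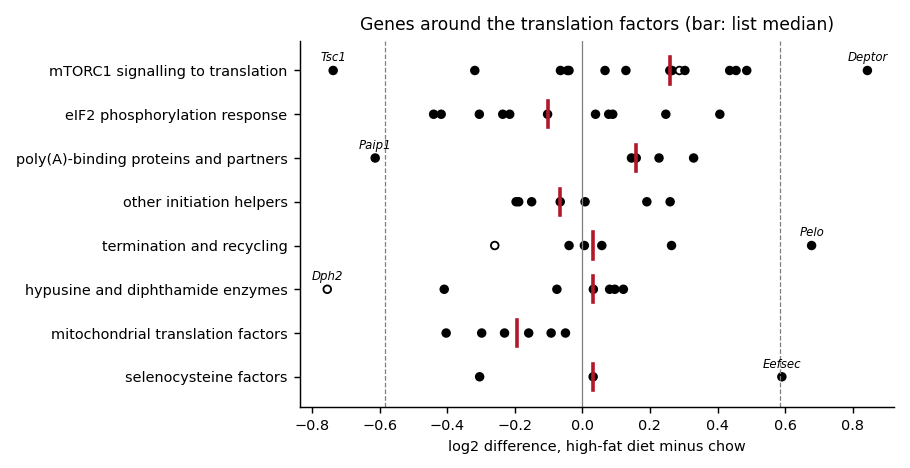
Log2 difference, high-fat diet minus chow (x axis), of each measured gene in 8 lists around the translation factors (rows). Open points are above the floor on 1 array only, bars are list medians, and dashed lines mark 1.5-fold. All 6 listed mitochondrial factors are left of 0, and Deptor is the point farthest right.

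Adipocyte markers, which define the labelled tissue, were bright on both arrays, and the summed intensity of the 8 measured ones was 46407.7 (HFD) and 43342.2 (chow). Adipoq was at 8718.4 (HFD) and 8372.1 (chow), while Lep was 1.55-fold higher and Pparg 1.40-fold lower. Several marker sets of other cells differed between the arrays. The summed intensity of 6 mesothelial markers was 918.3 (HFD) and 1372.6 (chow), with 5 of 6 lower. That of 5 measured liver genes was 240.9 (HFD) and 631.2 (chow), with all 5 lower. The largest part of the liver difference is Apoa2, at 13.1 (HFD) and 214.2 (chow). Apoa2 and Apoa1 were under the floor on the high-fat diet array. For 4 B cell markers the sum was 294.5 (HFD) and 430.6 (chow), with 3 lower, and for 4 smooth muscle markers 2217.4 (HFD) and 2048.7 (chow). The smooth muscle sum is mostly Acta2, at 1866.2 (HFD) and 1476.2 (chow). Des was also higher, at 93.4 (HFD) and 62.4 (chow), while Myh11 was 2.10-fold lower and Tagln 1.94-fold lower. Sums for 8 macrophage markers were 8766.3 (HFD) and 8547.4 (chow), for 6 endothelial markers 1844.7 (HFD) and 1766.4 (chow) and for 3 T cell markers 300.8 (HFD) and 257.5 (chow). The 3 measured epididymis markers were dim, 25.9 to 38.4 on the high-fat diet and 13.9 to 47.2 on chow. Their part in the values of Eef2k, Eef1akmt2, Eif2a and Eef1a2 was not tested.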

How the data were processed

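Total RNA was extracted with Trizol and turned into biotin-labelled cRNA, per the labels' protocols. The authors deposited 1 linear intensity per probe set and array, with summary algorithm and scaling not given in the sources used here. Trimmed means, leaving out 2% at each end, were 99.6 on both arrays, and intensities were used as deposited. Symbols came from the platform annotation of 2016: 34945 probe sets had 1 symbol, 932 several and 9160 none here. All 152 member probe sets matched RefSeq by gene ID. The floor, the representing probe set and log2 differences were computed with Python 3.11.15 and pandas 2.3.3 and run on simulated data. The simulated folds were placed only in brighter genes above the floor on both arrays, with noise below the probe error. Calls near the floor were therefore not tested by it. Genes named with values are those 1.5-fold or more different, the 5 members with the highest intensity, paralogue pairs, eIF2 kinases, Eef2 and Eef2k, the extremes of each role, and related genes 1.5-fold or more different. Other genes were named after their values were seen. Members and lists were chosen with earlier results of these data known. The number of arrays limits the precision, and 8 alternatives were tried.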

Additional observations from a re-analysis of the deposited data

How the results depend on the processing

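No paired analysis was possible because each diet had 1 array, and for the same reason no array could be left out. Under the 8 alternatives 1 member was 1.5-fold or more higher on the high-fat diet each time, and it was Eef1a2, at 0.66 to 0.77 where an alternative could change its value. The median difference of the members ran from -0.13, centred on reference genes, to 0.0019, with the mean of all probe sets. Centring on reference genes shifted the median of all genes to -0.10, and the split of all genes at 1.5-fold to 602 higher and 1253 lower, against 818 higher and 900 lower as deposited. The number of members lower by 1.5-fold or more was 3 in the main setting and 1 with the mean of all measured probe sets or with the probe set of smallest difference, which leave Eef1akmt2, whose only probe set neither of these can change. With 16 added the number was 2, without Eef1akmt2. Leaving out probe sets with the suffix _s_at, _x_at or _a_at also gave 2, with 44 members measured. Eef2k then differed by -0.47 and did not pass. With the probe set of smallest difference Eef2k differed by 0.030 and Eif2a by 0.33, both in the other direction, and with the mean of all probe sets Tsc1 differed by 0.026, also turned. Of 471 values of single genes under the alternatives, 46 values of 30 genes had the opposite sign, 24 of them under another choice of probe sets and 22 under another scaling. Apart from the 3 named, these genes differed by less than 0.25 as reported. The largest value after such a turn was 0.44, for Eif3l with the mean of all probe sets. Signals near the floor, such as Eif2ak4 and Dph2, give bounds only.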
